A study of Mus musculus with 18 samples.

Results

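Krt6a, Krt6b, Krt16 and Krt17, the wound-induced keratins of mouse skin, were followed by single-cell RNA sequencing during the first days of skin expansion. They were taken by their symbols, and all 4 were present among the 32285 genes of each count table. The study compared stretched with unstretched back skin: a hydrogel expander, a gel that swells under the skin, was placed below the back skin of mice, and skin was taken on day 1, 2 or 4. Every mouse, in both arms, had the same surgery, with a cut in the back skin near the tail and a tunnel made under the skin up to the neck with forceps. Expanded mice then received the expander, held by stitches, and control mice received none, so the control arm is operated and not intact skin. Strain, sex and age are not given in the sources used here.

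Live cells were sorted, the mice of each arm were pooled separately within a sequencing round, and 3′ libraries were made. This gave 5 control and 5 expanded libraries, namely 2 rounds on day 1, 2 rounds on day 2 and 1 round on day 4 in each arm. The p-values below therefore measure the spread between pools of mice, except where the mouse is the unit or clusters are compared within libraries. Values for single libraries are given in the order day 1 round 1, day 1 round 2, day 2 round 1, day 2 round 2, day 4.

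Keratins build the intermediate filaments of epithelial cells, and each filament needs a type I keratin paired with a type II keratin. Krt6a and Krt6b encode type II keratins, and Krt16 and Krt17 encode type I keratins that pair with them. In unwounded skin they are known mainly from the hair follicle, above all its outer root sheath and companion layer, and from the nail and the footpad. In the epidermis between follicles they are known to appear at the edge of a wound, where the resting suprabasal keratins Krt1 and Krt10 give way, and they serve as markers of stressed epidermis.

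The 4 genes sit in the 2 keratin clusters of the genome. On GRCm38 with the GENCODE M21 annotation, Krt6a lies on the minus strand at chr15:101689910-101694307, and Krt6b lies 9622 bases away on the same strand at chr15:101676023-101680287. Krt16 lies on the minus strand at chr11:100246091-100248902, and Krt17 lies 7314 bases away on the same strand at chr11:100256217-100261029. Krt6a and Krt6b each have 9 exons, and Krt16 and Krt17 each have 8.

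Krt6a and Krt6b are near-identical copies, so it matters where their reads can be told apart. Their coding sequences were 97.6% identical in the annotated transcripts, against 71.0% for Krt16 and Krt17. The ends of the coding sequences, from the GRCm38 transcripts, are shown because they hold the last coding bases that separate both genes near the 3′ end, where this assay reads. Capitals mark bases that differ from, or are absent in, the partner, and both runs start at coding base 1603.

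Krt6a: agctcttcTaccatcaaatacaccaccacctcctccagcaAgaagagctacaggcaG

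Krt6b: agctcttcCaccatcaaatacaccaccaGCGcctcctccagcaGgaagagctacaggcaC

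Past the coding sequence the copies diverged further. The last 500 bases of the transcripts, which hold most of the reads of a 3′ library, were 68.9% identical. Of all 50-base windows of the transcript, 49.5% for Krt6a and 50.1% for Krt6b also occurred in another gene, but 0 of the 451 windows in the last 500 bases did, for either gene. Krt16 shared 16.9% of its last 451 windows with other genes, Krt14 and Krt17 among them, and Krt17 shared 9.53%. Reads from those windows cannot be assigned to 1 gene, and how they were counted is not given in the sources used here.

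The libraries held 17726739 to 75470722 gene UMIs, counts of distinct RNA molecules, and 1927 to 8312 cells passed the quality filters. After doublet removal 45473 cells were left, of which 4923 fell into clusters named keratinocyte-like from their markers, 2037 in control and 2886 in expanded libraries. Any 2 libraries shared 0 to 17 cell barcodes, at most 0.334%. Control day 2 round 1 held only 60 keratinocytes, the fewest of all libraries, and stood low for Krt6a, so Krt6a values that it moves are also given without it. Keratinocyte sums from control libraries held more RNA of fibroblast markers, with 8 of 8 markers higher and a summed level of 141 to 1045.8 CPM (UMIs scaled to the same total in every sum) against 15.7 to 149. Sums from expanded libraries held more of the neutrophil markers, with 5 of 6 higher and Ly6g at 0. Their summed level was 8.35 to 1001.9 CPM against 0 to 6.41, and S100a8 and S100a9 are among the 6. The part of fibroblast or neutrophil RNA in the results below was not tested.

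Outside keratinocytes the 4 genes were low. Melanocyte-like cells had the highest Krt17 among the other named classes, at 196 ± 295 CPM (SD, n = 8 libraries), and Krt16 at 53.6 ± 66.2 CPM. Langerhans-like cells, which sit within the epidermis, had 31.4 ± 42.8 CPM of Krt17 (n = 10), and fibroblast-like cells had 6.61 ± 7.14 CPM (n = 10).

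In all keratinocytes together, Krt6b rose in expanded skin from almost nothing, Krt6a was higher in every expanded library but did not pass the test, and Krt16 and Krt17 did not differ beyond their spread. The comparison sets stretched skin against operated skin that was not stretched. Counts were summed per library and day entered edgeR's quasi-likelihood fit as a term, with p-values adjusted by Benjamini-Hochberg over 12396 genes. In that fit 972 genes passed an adjusted p of 0.05, 496 higher and 476 lower, a background of 7.84% against 1 of the 4 keratins. The median log2 fold change was 0.01 over all genes tested. In such sums, more cells of 1 cluster and more RNA per cell cannot be told apart.

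Krt6a, the main inducible partner of Krt16 and Krt17, stood at 420.2, 307, 61.1, 455 and 359.6 CPM in the control libraries. It stood at 494, 732, 1013.7, 1077.9 and 1018.7 CPM in the expanded libraries. Every expanded library lay above every control library, and the expanded library was higher in 5 of 5 comparisons within a day and round. Of all genes tested, 548 (4.42%) were separated upward in that way. The means were 321 ± 156 and 867 ± 248 CPM (SD, n = 5 each), a ratio of 2.71. The log2 fold change was 1.35 (SE 0.38), with an edgeR adjusted p of 0.0502. With the sequencing round as a replicate block it was 1.46, with an edgeR adjusted p of 0.0404. Without control day 2 round 1, the lowest library, the log2 fold change was 1.04 with an edgeR adjusted p of 0.0170, so the gene lay on either side of the threshold.

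Krt6b, the less studied copy, stood at 0.493, 0.140, 0, 0 and 7.95 CPM in the control libraries, a total of 48 UMIs. The expanded libraries stood at 39.5, 63.4, 31.8, 6.51 and 35.6 CPM, a total of 2101 UMIs. The expanded library was higher in 5 of 5 comparisons within a day and round, although control day 4 lay above expanded day 2 round 2. The log2 fold change was 4.60 (SE 0.73, edgeR adjusted p = 0.00605, n = 5 and 5), and the ratio of means was 20.6. The control day 4 value rested on a single cell with 44 of the 48 UMIs. Without that library the log2 fold change was 7.48, and 7.47 without expanded day 4, with edgeR adjusted p-values of 6.7e-04 and 9.7e-04. The lowest value was 4.02 (edgeR adjusted p = 0.0187), without control day 1 round 2, so the size of the change, and the ratio of means, moved with the day 4 libraries.

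Krt17, the keratin with the widest expression in follicles, stood at 2918.7, 2692.7, 1944.0, 2380.6 and 2782.3 CPM in control libraries. The expanded libraries stood at 1794.3, 2502.9, 2550.3, 3169.9 and 3934.4 CPM. The arms overlapped, with means of 2543.7 ± 389 and 2790.4 ± 804 CPM, and the log2 fold change was 0.08 (SE 0.17, edgeR adjusted p = 0.820).

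Krt16, which is known to respond strongly to injury in the epidermis, stood at 157, 339, 481, 134 and 468 CPM in control libraries. The expanded libraries stood at 129, 386, 288, 463 and 219 CPM. The arms overlapped over nearly their whole range, with means of 316 ± 165 and 297 ± 132 CPM, and the fitted difference was -0.10 on the log2 scale (SE 0.40, edgeR adjusted p = 0.921). The matrix-like cluster, with 208 control cells and only 10 expanded cells, held 41.5% of all control Krt16 UMIs. Without that cluster, an alternative chosen after seeing the data, the Krt16 log2 fold change was 0.19 with an edgeR adjusted p of 0.787.

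**Figure D1:**
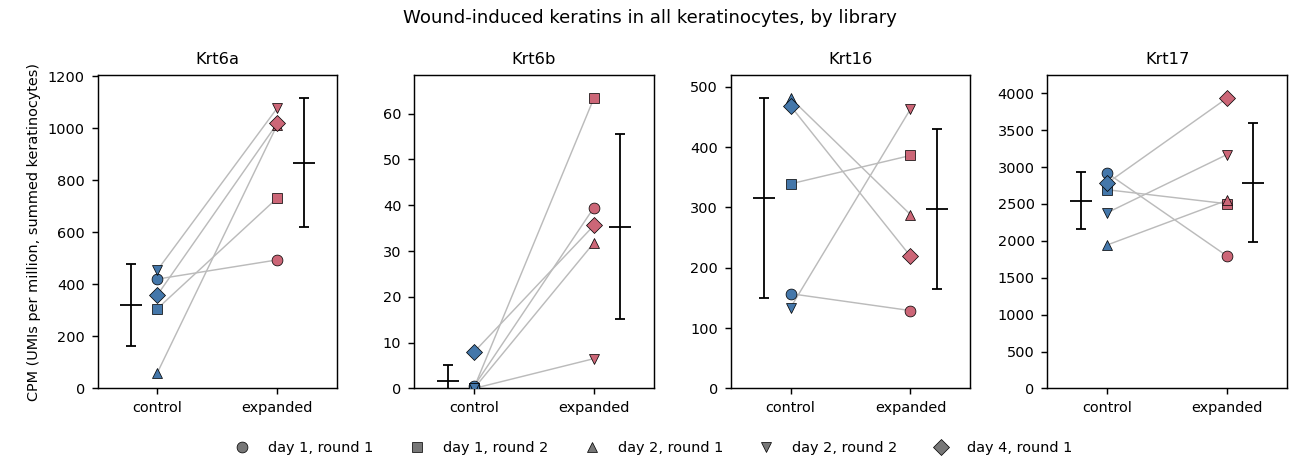
CPM (scaled UMIs of summed keratinocytes) of the 4 keratins in each library, control in blue and expanded in red, with grey lines joining libraries of the same day and round, the marker giving day and round, and black bars the mean ± SD of 5 libraries. Krt6a libraries do not overlap between arms (at most 455 against at least 494 CPM), Krt6b is near 0 in 4 of 5 control libraries, and Krt16 and Krt17 overlap.

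Krt6b came from few cells. A Krt6b UMI was found in 4 of 2037 control and 70 of 2886 expanded keratinocytes, and 29 expanded cells held 96.0% of the expanded UMIs, with up to 319 in a cell. The 29 cells highest in Krt6a held 26.1% of its UMIs in expanded libraries, those highest in Krt17 held 18.0%, and those highest in Krt16 held 63.7%. Expanded keratinocytes were deeper, with a median of 13100 UMIs against 9985, so shares of positive cells were compared with each cell thinned to 2000 UMIs. Cells below that depth, 55 in control and 51 in expanded libraries, were not counted.

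After thinning, a Krt6a UMI was found in 21.6% ± 6.78 of control and 35.9% ± 5.93 of expanded keratinocytes (SD, n = 5 libraries each). The unthinned shares were 35.0% and 58.7%. For Krt6b the thinned shares were 0.0967% ± 0.133 and 1.05% ± 0.484, and the unthinned shares 0.168% and 2.93%. Both genes were thus found in more cells of the expanded arm at equal depth.

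For Krt16 the thinned shares ran the other way, at 13.4% ± 5.58 in control and 8.98% ± 3.0 in expanded keratinocytes, with unthinned shares of 25.1% and 19.7%. The matrix-like cluster, with 208 control and 10 expanded cells before thinning, held 41.5% of control Krt16 UMIs. Shares without that cluster were not computed. For Krt17 the thinned shares were 66.6% ± 3.24 and 60.1% ± 7.99, with unthinned shares of 79.4% and 80.2%. Endothelial-like cells, which should lack all 4 genes, gave the background from free RNA at the same 2000 UMIs. It was 0.323% and 1.06% for Krt6a, 0% and 0.0897% for Krt6b, 0.0915% and 0.223% for Krt16, and 1.33% and 1.39% for Krt17, control first. The median depth of endothelial-like cells before thinning was 5182 UMIs in control and 9595.5 in expanded libraries.

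The cells that held Krt6b mostly held its partners as well. Of the 30 thinned expanded keratinocytes with a Krt6b UMI, 86.7% also had Krt6a, 73.3% had Krt16 and 86.7% had Krt17. Among all thinned expanded keratinocytes the shares were 33.7%, 8.22% and 58.1%. Cells with more keratin RNA pass 1 UMI more easily for every gene, so these shares are a description.

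Hashtags assigned 45.7% of control and 32.3% of expanded keratinocytes of the hashed libraries to single mice, unevenly by cluster, and this gave 14 mice per arm with at least 10 keratinocytes. Krt6b was at 0 in 12 of 14 control mice and in 0 of 14 expanded mice, which ranged from 2.23 to 179 CPM. The control mice of day 2 round 1 had 10, 11 and 16 keratinocytes, and 1 UMI was 5.40 CPM in the deepest of them. A 0 in those mice therefore cannot be set against the lowest expanded levels. Krt6a was 341 ± 279 CPM in control and 1034.5 ± 334 CPM in expanded mice (SD, n = 14 each). With the mouse as the unit 1956 of 7767 genes (25.2%) were called by edgeR, and Krt6a had a log2 fold change of 1.63 with an adjusted p of 3.7e-04. Krt17 was 2114.1 ± 716 and 3380.4 ± 1461.2 CPM, with a log2 fold change of 0.61 and an edgeR adjusted p of 0.0275 in the same fit, and Krt16 was at 1.01 with an edgeR adjusted p of 0.101. Mice of a pool share a library, so the mice are not fully independent samples.

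By day, Krt6b was called on day 1. In a fit with a mean for each arm and day, 919 of 13051 genes (7.04%) were called by edgeR on day 1, and Krt6b had a log2 fold change of 7.27 with an edgeR adjusted p of 0.00163. The day 1 controls held 3 and 1 Krt6b UMIs, and the expanded libraries 496 and 1133. Krt6a had a day 1 log2 fold change of 0.69 and Krt17 of -0.45, with edgeR adjusted p-values of 0.459 and 0.198.

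On day 2 the control libraries held 0 Krt6b UMIs and the expanded libraries 115 and 17. No gene passed on day 2, 0 of 13051 (0%) by edgeR, with 1311 genes at an unadjusted p under 0.05. With the replicate block 92 genes passed on day 2, Krt6a among them at a log2 fold change of 2.33 with an edgeR adjusted p of 0.0283, and Krt6b at an edgeR adjusted p of 0.00322. Without the block the Krt6a value was 1.94 with an edgeR adjusted p of 0.329, and without the block it was 1.22 (edgeR adjusted p = 0.482) without control day 2 round 1 and 4.08 (edgeR adjusted p = 0.0219) without control day 2 round 2. The day fit with the block had 2 residual degrees of freedom. On day 4, with 1 library per arm taking the spread of the other days, 24 genes (0.184%) passed and no member did. There Krt6a was at 1.52 and Krt6b at 2.18, with edgeR adjusted p-values of 0.649 and 0.393. With the block 245 genes passed on day 4, and Krt6b had an edgeR adjusted p of 0.00316.

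No member's effect of expansion passed a test of the difference between days in the filtered fit without the block. The contrast of day 2 with day 1 called 14 genes (0.107%) and that of day 4 with day 1 called 0 (0%), by edgeR, while 114 passed the latter with the block. With the block the Krt6b effect was smaller on day 4 than on day 1, by -5.10 on the log2 scale (edgeR adjusted p = 0.00189). The single control cell with 44 UMIs lies in the day 4 control library. Among control libraries alone, 73 genes (0.559%) differed between day 2 and day 1 and 2 genes (0.0153%) between day 4 and day 1, and no member did.

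The keratinocytes fell into 18 clusters, formed without the 4 keratins and named where the markers allowed it. Levels are means over libraries with at least 20 cells of a cluster. Krt17 was highest in the cluster led by Gja1 and Pthlh, at 13825.9 ± 1069.3 CPM (SD, n = 4), then in the cluster led by Aspn and Tgfb2, at 10830.6 ± 2841.4 CPM (n = 4), and in the cluster led by Cst6, Klk7 and Krt79, at 9632.9 ± 2691.3 CPM (n = 6). Those neighbours in the order did not differ beyond their spread. The bulge or outer root sheath-like cluster led by Nppc and Scrg1 followed at 4391.0 ± 712 CPM (n = 5). The lowest was the sebaceous-like cluster, at 45.6 CPM in its only library.

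Krt6a shared part of that order. It was highest in the Gja1 cluster at 3206.1 ± 1066.1 CPM (n = 4) and in the Cst6 cluster at 2404.7 ± 1301.3 CPM (n = 6), which overlapped. Their order turned by arm, with 3512.0 ± 1253.4 CPM in the Gja1 cluster (n = 2) and 1283.6 ± 64.8 CPM in the Cst6 cluster (n = 3) in control libraries. In expanded libraries they stood at 2900.3 ± 1210.3 CPM (n = 2) and 3525.7 ± 678 CPM (n = 3). The cluster led by Cstdc5 and Stfa3, with expanded libraries only, followed at 1355.6 ± 521 CPM (n = 3) and the bulge-like cluster led by Krt24 and Sfrp1 at 1022.7 ± 529 CPM (n = 4). In the Aspn cluster, high in Krt17, Krt6a was only 171 ± 79.3 CPM (n = 4). It was 10.7 ± 8.29 CPM in basal-like cells (n = 2 libraries) and 27.2 ± 13.4 CPM in the cluster led by Abi3bp and Slc7a2 (n = 6).

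Krt16 had another order, with wide spreads. Its highest means were 1024.0 ± 1384.6 CPM in the spinous-like cluster (n = 3), 901 ± 715 CPM in the Cst6 cluster (n = 6), 762 ± 460.5 CPM in the inner root sheath or matrix-like cluster (n = 3) and 534 ± 725 CPM in the Abi3bp cluster (n = 6). None of these differed beyond its spread, and the arms differed in order. In control libraries the means were highest in the Abi3bp cluster (926 ± 915 CPM, n = 3) and the matrix-like cluster, which had control libraries only. The bulge-like cluster led by Krt24 and Sfrp1 followed (389 CPM, 1 library), then the Cst6 cluster (331 ± 468 CPM, n = 3) and the spinous-like cluster (225 ± 2.27 CPM, n = 2). In expanded libraries the spinous-like cluster (2622.8 CPM, 1 library) and the Cst6 cluster (1471.2 ± 289 CPM, n = 3) lay above the Abi3bp cluster (143 ± 135 CPM, n = 3). Krt16 was at 11.1 ± 9.95 CPM in the Aspn cluster (n = 4) and 13.8 ± 8.69 CPM in the cluster led by Aldh3a1 (n = 4).

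Krt6b lay mainly in 3 clusters. Of all its keratinocyte UMIs, 52.9% lay in the spinous-like cluster, 30.9% in the Cst6 cluster and 15.1% in the Cstdc5 cluster. It reached 168 ± 291 CPM in the spinous-like cluster (n = 3), 116 ± 158 CPM in the Cst6 cluster (n = 6) and 79.6 ± 37.5 CPM in the Cstdc5 cluster (n = 3), which overlapped. The next cluster, led by Krt24 and Sncg, had 3.1 ± 4.38 CPM (n = 2).

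**Figure D2:**
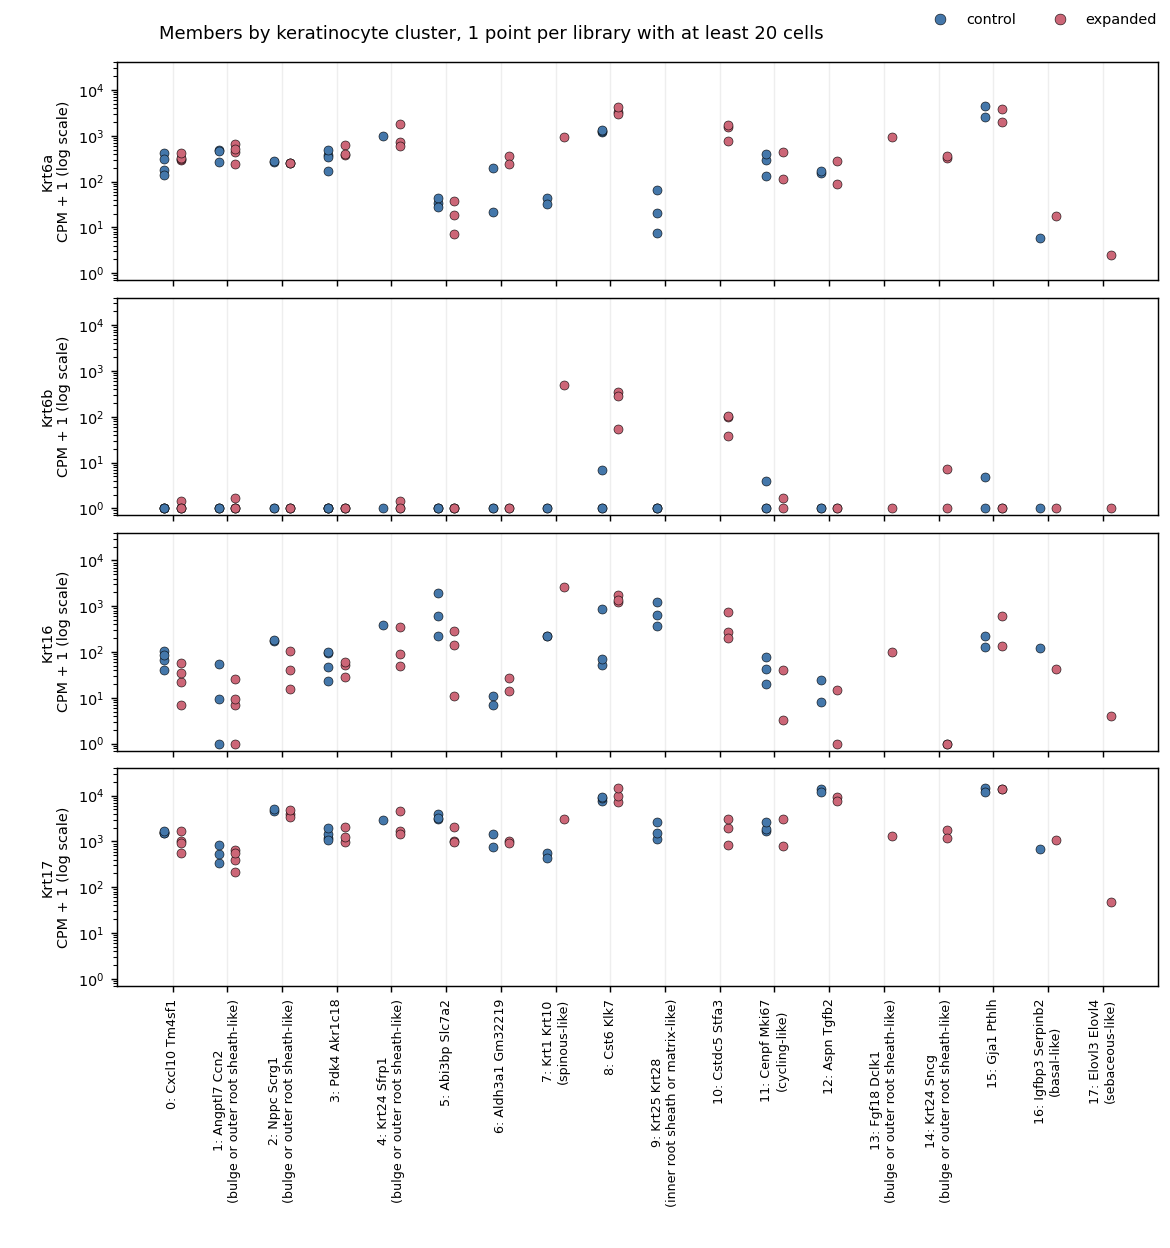
CPM plus 1 on a log axis for each of the 4 keratins in the 18 keratinocyte clusters, with a point for each library with at least 20 cells of the cluster, control in blue and expanded in red, and cluster names on the x axis made of the leading genes and, where given, the name. Krt17 is at 45.6 CPM or more in every cluster, while Krt6b leaves the bottom of the axis mainly in the spinous-like, Cst6 Klk7 and Cstdc5 Stfa3 clusters.

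In the Cst6 cluster all 4 keratins had a higher mean in expanded skin, and Krt6a and Krt16 passed the test. Its leading genes are known from the upper hair follicle, and all 8 spinous markers were also enriched in it, so it is given by its leading genes. Fits of single clusters used libraries with at least 10 cells, an alternative chosen after seeing the data. This cluster had 4 control libraries, without day 2 round 1, and 5 expanded ones. Of 4367 genes tested 51 (1.17%) were called by edgeR.

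Krt6a in the Cst6 cluster stood at 1220.0, 1281.4, 1349.5 and 2063.5 CPM in the control libraries. It stood at 3355.1, 2949.8, 3219.8, 4536.9 and 4272.4 CPM in the expanded libraries. The arms did not overlap, as for 188 of the 4367 genes (4.31%) in the same direction. The means were 1478.6 ± 394 (n = 4) and 3666.8 ± 695 CPM (n = 5), the log2 fold change was 1.25 (SE 0.20) and the edgeR adjusted p was 0.00668. Without control day 1 round 1 the edgeR adjusted p was 0.0561.

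Krt16 in the same cluster stood at 52.3, 69.4, 871 and 899 CPM in the control libraries, low on day 1 and higher on days 2 and 4. The expanded libraries stood at 1240.2, 1795.7, 1926.0, 3907.2 and 1377.6 CPM, all above the controls. The log2 fold change was 2.52 (SE 0.52, edgeR adjusted p = 0.0262), and the call was lost in 4 of the 9 fits that left out a library. Those fits left out control day 1 round 1 (edgeR adjusted p = 0.146), control day 1 round 2 (0.114), expanded day 1 round 2 (0.0553) and expanded day 2 round 2 (0.0548).

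Krt6b in the Cst6 cluster stood at 5.81, 0, 0 and 254 CPM in control and 54.4, 347, 272, 50.8 and 286 CPM in expanded libraries. The high control library was day 4, and its value came from the cell with 44 UMIs. The log2 fold change was 2.73 with an edgeR adjusted p of 0.131, 6.1 with an edgeR adjusted p of 0.0135 without that library, and 6.06 with an edgeR adjusted p of 0.0120 without expanded day 4. Krt17 stood at 7682.9, 8938.1, 9478.6 and 9695.2 CPM in control and 7215.6, 9745.2, 17285.7, 12347.4 and 14736.9 CPM in expanded libraries. The Krt17 arms overlapped on day 1, and the log2 fold change was 0.28 with an edgeR adjusted p of 0.585.

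The spinous-like cluster, led by Krt1 and Krt10, had 146 control and 102 expanded cells, too few libraries for a test. Krt6b was at 0 UMIs in all control cells and at 1137 UMIs in the expanded cells, with 1137.4 and 505 CPM in the day 1 libraries of round 1 and round 2. Krt6a was 42.1 and 31.0 CPM in the day 1 control libraries and 55.4 CPM on day 4. It was 1250.6 and 922 CPM in the day 1 expanded libraries. Krt16 stood at 226, 223 and 1007.3 CPM in those controls against 1239.0 and 2622.8 CPM, and Krt17 at 559, 424 and 327 against 1064.9 and 3137.4 CPM. In each of the 4 genes both expanded libraries lay above all 3 control libraries, with no test. Of the 7117 genes with a mean of at least 10 CPM in these libraries, 1823 (25.6%) were separated upward in the same way.

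**Figure D3:**
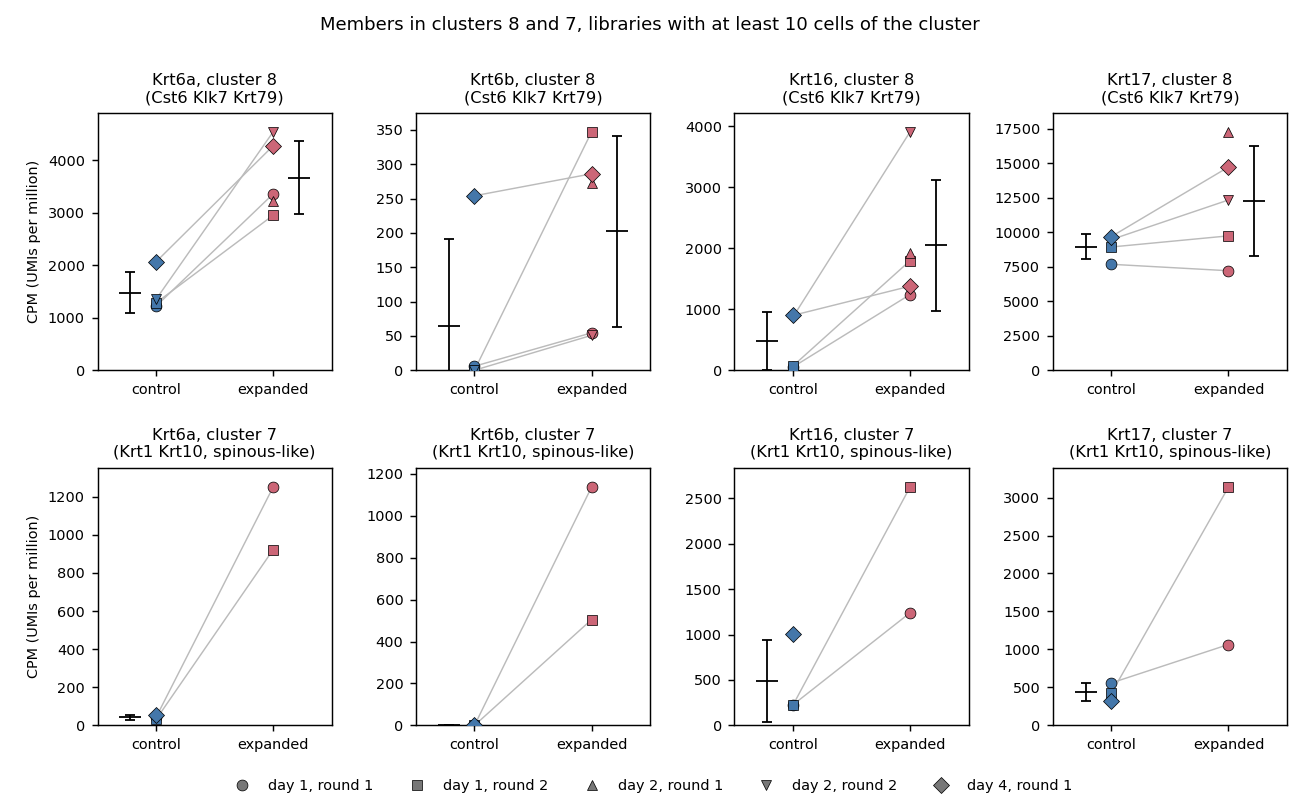
CPM of the 4 keratins in cluster 8 (Cst6, Klk7 and Krt79, top) and the spinous-like cluster 7 (bottom), for libraries with at least 10 cells, with grey lines joining libraries of the same day and round and black bars the mean ± SD where an arm has 3 or more libraries (lower ends cut at 0). Krt6a and Krt16 do not overlap between arms in cluster 8, and in cluster 7 both expanded libraries lie above the 3 control libraries for every gene.

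The cluster led by Aldh3a1 and Cacna2d2 also had more Krt6a in expanded skin. The control libraries stood at 45.6, 20.4, 195 and 56.3 CPM and the expanded libraries at 352, 243, 318, 285 and 405 CPM. The log2 fold change was 1.65 (SE 0.34, edgeR adjusted p = 0.0120), among 53 of 3260 genes (1.63%) called, and the edgeR adjusted p was 0.0710 without control day 1 round 2 and 0.467 with no filter on low counts.

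The other clusters tested in that setting were clusters 0, 1, 3, 4, 5, 11 and 13, where 1.44%, 1.09%, 1.13%, 4.33%, 0.169%, 0.447% and 0.584% of genes were called. Krt6a was called in 2 of 9 clusters, both upward, with log2 fold changes from -0.70 to 1.65. Krt16 was called in 1 of 7, with 6 of the 7 values below 0, from -2.24 to 2.52. Krt17 was called in 0 of 9, from -1.01 to 1.44, with edgeR adjusted p-values from 0.0624, in cluster 0, led by Cxcl10 and Gata6, to 0.808. Whether the effect differs between the Cst6 cluster and the cluster led by Cxcl10 and Gata6 was tested within libraries, and no gene passed, 0 of 6429 (0%) by edgeR with 336 at an unadjusted p under 0.05. The Krt16 difference of effects was 4.06 and the Krt17 difference 1.02, each with an edgeR adjusted p of 0.102. Without control day 2 round 2 Krt16 was the only gene called, at 5.09 with an edgeR adjusted p of 0.00872.

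The cluster led by Cstdc5 and Stfa3 held 202 expanded and 12 control cells, with a median of 24651.5 UMIs, and the neutrophil genes S100a8 and S100a9 were among its leading genes. It had no control library with 10 cells, so its levels could not be compared. Without it, an alternative chosen after seeing the data, Krt6b kept a log2 fold change of 4.45 with an edgeR adjusted p of 0.0178, Krt6a was at 1.27 with an adjusted p of 0.0828, and 482 genes were called.

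The members were also compared between arms within the broad clusters of the first clustering. In the broad Ly6d cluster, 1797 cells led by Ly6d and Apoc1, Krt6b was at 0 UMIs in all 5 control libraries. The expanded libraries held 15.9, 10.9, 10.7, 2.84 and 36.2 CPM, a total of 353 UMIs. Pooled over libraries that is at least 52.0-fold higher, against a floor of 3 counts for the control group, with an edgeR adjusted p of 0.00111. In this cluster 1656 of 10244 genes (16.2%) were called. Most Krt6b UMIs lay outside it, as all keratinocytes held 2101 in expanded and 48 in control libraries. The Cstdc5 cluster of the second clustering, with only 12 control cells, held 324 Krt6b UMIs in its expanded cells. How many of those are among the 353 was not counted.

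Krt6a in the Ly6d cluster stood at 622, 348, 25.4, 520.0 and 440.2 CPM in control and 507, 737, 1197.1, 643 and 968 CPM in expanded libraries. The arms overlapped on day 1, and the log2 fold change was 0.93 with an edgeR adjusted p of 0.175. Without control day 2 round 1 it was 0.59, with an edgeR adjusted p of 0.112. Krt16 was 81.1 ± 44.9 CPM in control and 135 ± 26.8 CPM in expanded libraries, higher in 4 of 5 comparisons within a day and round (log2 fold change 0.56, edgeR adjusted p = 0.164). When the 4 keratins were allowed to shape the clusters, both passed, Krt6a at 1.28 and Krt16 at 1.47 (edgeR adjusted p = 0.0373 and 0.0155). Krt17 was 1817.4 ± 414 and 1994.5 ± 828 CPM, with a log2 fold change of 0.01 and an edgeR adjusted p of 0.989.

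In the broad Krt15 cluster, 2305 cells led by Krt24 and Krt15 that hold the bulge and outer root sheath-like cells, Krt6a, Krt16 and Krt17 were not called over all days. Of 10154 genes 113 (1.11%) were called by edgeR, and control day 2 round 1, with 19 cells, was not in the fit. Krt17 stood at 4747.7, 5649.9, 2590.5 and 3711.9 CPM in the control libraries and at 2214.5, 2338.7, 2554.1, 2169.5 and 4596.1 CPM in the expanded libraries. The day 1 controls were high and expanded day 4 was high, and the arms overlapped (log2 fold change -0.55, edgeR adjusted p = 0.237).

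On day 1 alone Krt17 fell in the Krt15 cluster, by 1.26 on the log2 scale (SE 0.18, edgeR adjusted p = 0.0388), 1 of 17 genes called among 10740 (0.158%). The call was lost in 4 fits that left out a library, with the smallest change, a fall by 1.13 with an edgeR adjusted p of 0.139, without control day 1 round 2. Krt16 in the same libraries was 90.6 and 479 CPM in control and 18.0 and 73.4 CPM in expanded skin on day 1, lower in both rounds. Its log2 fold change on day 1 was -2.67 with an edgeR adjusted p of 0.156, and -2.61 with an edgeR adjusted p of 8.9e-08 with the replicate block. With the block 1374 of 10771 genes passed on day 1. This fit left out expanded day 2 round 1, which had no control partner with enough cells of the cluster, and had 4 pairs and 1 residual degree of freedom.

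In the fit with the block, some effects in the Krt15 cluster were estimated higher on later days than on day 1. Days 2 and 4 have 1 pair each there, so the fit holds no spread of the effect on those days. In that fit the Krt16 effect on day 2 exceeded that on day 1 by 3.65. The difference was 3.71 when the same library was left out without the block. With the block the effects on day 4 exceeded those on day 1 by 1.33 for Krt6a, 1.78 for Krt16 and 1.54 for Krt17. Without the block no gene passed either contrast, 0 of 10740 (0%) by edgeR, and the adjusted p of Krt17 for day 4 was 0.471. Control day 2 round 2 had 30.4 and control day 4 had 364 CPM of Krt16, and among control libraries 0.186% of genes differed between day 2 and day 1 and 0.00931% between day 4 and day 1, no member among them.

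Krt6a in the Krt15 cluster was 503 ± 62.3 CPM in control (n = 4) and 617 ± 217 CPM in expanded libraries (n = 5), with a log2 fold change of 0.19 and an edgeR adjusted p of 0.718. Krt6b had only 2 UMIs in control and 6 in expanded cells there and was not tested. The difference between the effect in the Ly6d and the Krt15 cluster, tested within libraries as an alternative chosen after seeing the data, called 13 of 10869 genes (0.12%), and no member. The bulge or outer root sheath-like cells alone, with 157 of 9101 genes called (1.73%), had log2 fold changes of 0.37 for Krt6a, -0.67 for Krt16 and -0.20 for Krt17, none called.

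**Figure D4:**
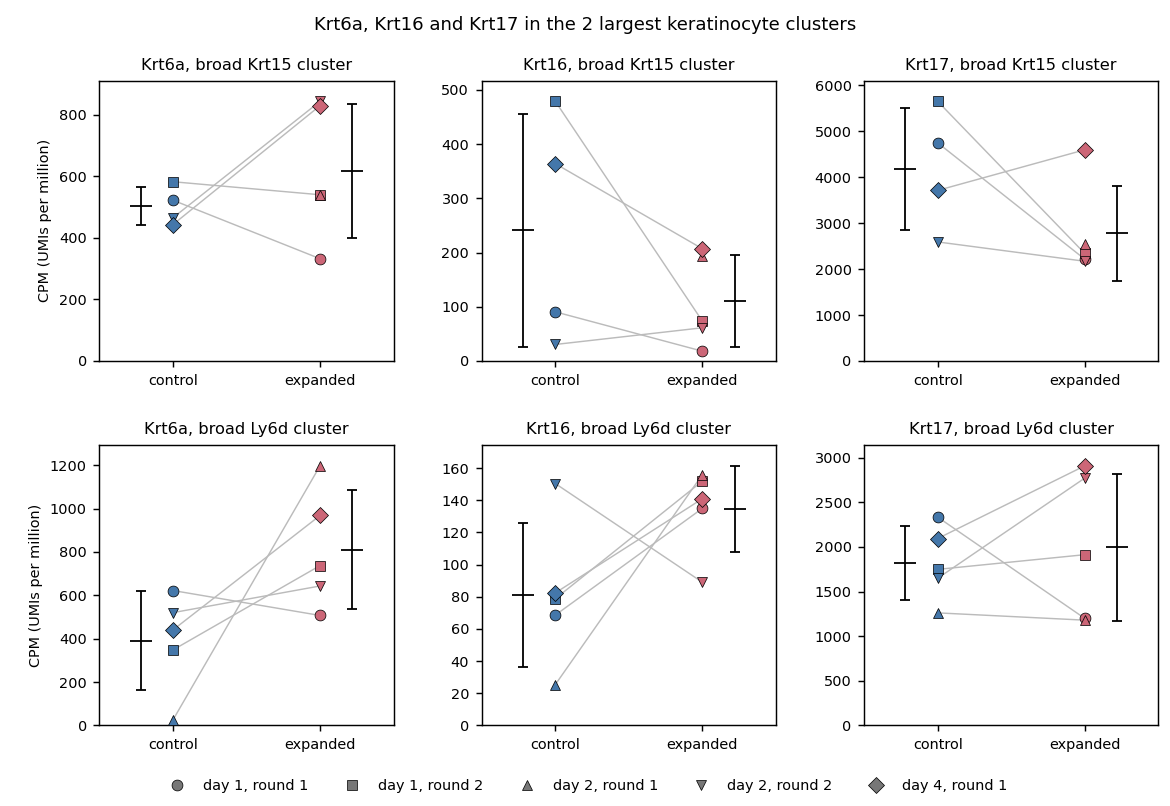
CPM of Krt6a, Krt16 and Krt17 in the broad Krt15 cluster (top) and the broad Ly6d cluster (bottom) in each library of the fit, with grey lines joining libraries of the same day and round and black bars the mean ± SD. Krt17 in the Krt15 cluster is lower in both day 1 expanded libraries (2214.5 and 2338.7 CPM) than in the day 1 controls (4747.7 and 5649.9 CPM), and higher on day 4.

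In the cluster led by Cxcl10 and Gata6 the type I members were lower in expanded skin, without a call. In libraries with at least 20 cells, Krt17 stood at 1621.2, 1491.9, 1492.1 and 1673.3 CPM in control and at 554, 1041.4, 924 and 1688.9 CPM in expanded libraries. Its log2 fold change was -0.73 with an edgeR adjusted p of 0.101, and that of Krt16 was -1.46 with an edgeR adjusted p of 0.158. Here 50 of 7334 genes (0.682%) were called. With libraries of at least 10 cells and the replicate block, Krt16 passed at -1.85 (edgeR adjusted p = 0.0151) and Krt17 at -0.67 (edgeR adjusted p = 0.0236). That fit called 335 of 6958 genes, against 100 (1.44%) in the same libraries without the block.

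Other keratins and genes of the wound keratin pathway were read from lists, in all keratinocytes. Among basal and differentiation keratins 2 of 9 tested members rose and 3 fell, with a median log2 fold change of -0.17 against 0.01 over all genes. Krt77, a late suprabasal keratin, fell by 1.81 (225 ± 173 to 63.4 ± 52.1 CPM, edgeR adjusted p = 0.0214), and Krt78 fell by 2.39 (2.98 ± 2.82 to 0.662 ± 0.740 CPM, edgeR adjusted p = 0.0331). Krt5 and Krt14, the basal pair, were the genes that rose, by 0.73 and 0.55 (edgeR adjusted p = 0.00829 and 0.0225), and Krt10 fell by 1.23 (edgeR adjusted p = 0.0300). These 3, and Krt27 and Lcn2 below, were named after their values were seen, to complete the counts. Of the follicle sheath keratins, mostly keratins of the inner root sheath, 3 of 5 fell and 0 rose, with a median of -2.77. Krt25 fell by 8.05, Krt28 by 5.82 and Krt27 by 2.11 (edgeR adjusted p = 1.5e-04, 7.0e-04 and 0.0452), and all of them are among the leading genes of the matrix-like cluster.

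Of the simple epithelial and other soft keratins 1 of 5 fell, Krt23 by 3.07 (edgeR adjusted p = 0.0219), with a median of -0.31. The EGF receptor and its ligands, known inducers of these keratins, had 0 of 7 tested genes called and a median of -0.16. The transcription factors listed upstream of wound keratins, such as AP-1 members, Nfe2l2 and Stat3, had 0 of 14 called and a median of -0.14.

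Cytokine receptors had 2 of 13 higher and 0 lower, with a median of 0.18. Tnfrsf1a, a tumour necrosis factor receptor, rose by 0.73 (82.1 ± 23.6 to 140.1 ± 13.2 CPM, edgeR adjusted p = 0.0154), and Il17rc, a subunit of the interleukin 17 receptor, rose by 0.56 (27.4 ± 6.32 to 41.8 ± 10.4 CPM, edgeR adjusted p = 0.0456). Each was higher in 5 of 5 comparisons within a day and round.

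Alarm and antimicrobial genes had 3 of 11 higher and 0 lower, with a median of 0.28. S100a9 and S100a8, calcium-binding alarm proteins that stressed keratinocytes and neutrophils both make, rose by 5.82 and 4.91 (edgeR adjusted p = 0.00593 and 0.0218), from 1.16 ± 0.992 to 154 ± 196 CPM and from 1.58 ± 1.33 to 146 ± 209 CPM. Lcn2, an iron-sequestering antimicrobial protein, rose by 1.81 (edgeR adjusted p = 0.00833). S100a8 and S100a9 are also known from neutrophils. The neutrophil marker sum given above contains both genes. Of its 6 markers 5 were higher in expanded libraries, with Ly6g at 0, so the difference was not confined to S100a8 and S100a9. The part of neutrophil RNA in the S100a8 and S100a9 values was not tested.

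Small proline-rich and envelope genes had 0 of 9 called and a median of -0.57. Wound edge adhesion and protease genes had 1 of 15 higher and 1 lower, with a median of -0.07. Itga3, a laminin-binding integrin, rose by 0.49 (27.1 ± 2.52 to 38.8 ± 8.48 CPM, edgeR adjusted p = 0.0299), and Plau, the urokinase protease, fell by 1.64 (19.0 ± 12.0 to 6.05 ± 1.15 CPM, edgeR adjusted p = 0.0460). Keratin partners and desmosome genes had 1 of 10 higher and 0 lower, with a median of 0.12. That gene was Dsg3, the desmosomal cadherin of basal and outer root sheath cells, which rose by 0.68 (162 ± 35.2 to 266 ± 53.3 CPM, edgeR adjusted p = 0.00690).

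The genes whose pattern was most like each keratin were found over 75 units of cluster and library, among 7856 genes, by Pearson's r of log2(CPM + 1). Units share libraries and clusters, so r is a description. For Krt6a they were Sdc1 (0.77), Ctsd (0.67), Pls3 (0.65), Dsg3 (0.64) and Dsp (0.64). For Krt6b they were Serpinb3b (0.67), 2610528A11Rik (0.63), H13 (0.62), Rbp2 (0.61) and Gipc1 (0.60). For Krt16 they were Ezr (0.74), Bzw1 (0.67), Areg (0.65), Pmaip1 (0.65) and Lypd3 (0.63). For Krt17, Sema6a (0.69), Prdm1 (0.68), Atp6v0c (0.65) and Mtss1 (0.65) were among the most alike.

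The genes above were picked for the highest r, so lower r between the 4 keratins does not show that these are unusually unlike. Where each pair of keratins ranks among all genes compared was not tested. The highest r between members was 0.48, for Krt6a with Krt17, followed by 0.43 for Krt6a with Krt6b and for Krt16 with Krt17. Krt6b with Krt16 gave 0.41 and Krt6b with Krt17 gave 0.26. The lowest was 0.13, for Krt6a with Krt16, a type II keratin and a type I keratin that can share a filament.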

How the data were processed

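The 10 mRNA libraries were deposited as counts of UMIs per gene and cell barcode, which the submitters' processing notes credit to Cell Ranger 6.1.2 and mm10. Hashing libraries, 8 of the 18 samples, gave tag counts in the deposited files. A limit of 200 genes, 500 UMIs and 10% mitochondrial UMIs per cell left 47251 cells. Doublets, 1778 called by Scrublet (835 of them) or by hashtags (Seurat 5.3.0), were removed, and Scrublet marked 0.0292% to 2.96% of cells per library. Cells were clustered with scanpy 1.11.5 (2000 variable genes without the 4 keratins, 30 components, 15 neighbours, resolution 1, leidenalg 0.10.2), keratinocytes again with 20 components, and 116 cells mixed with other classes were left out. The labels are rebuilt, so clusters may differ from the study's.

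Counts were summed per library (at least 20 cells and 4 libraries per arm) and tested with edgeR 4.0.16 (R 4.3.3, TMM, filterByExpr, quasi-likelihood F test, Benjamini-Hochberg, threshold 0.05), and scripts were tested on simulated data. SEs are the log2 fold change divided by the square root of F. Alternatives were DESeq2 1.42.0, RLE size factors, no filter, stricter cell filters, thinning, the mouse as the unit, the replicate block and leaving out each library. Replicate numbers are sequencing rounds in the labels and so pair the arms. Deviations of rounds correlated between arms at 0.31 on day 1 and 0.09 on day 2 (12396 genes). Samples were grouped by their labels and descriptions.

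The members and gene lists were chosen with earlier results of these data known. Named were the 4 keratins, from each list the 2 called genes with the largest change, and per keratin the 5 genes with the highest correlation, among genes with a mean of at least 10 CPM. For Krt17, 1 of those 5 is not reported here. Positions and transcripts came from GENCODE M21 on GRCm38. Intervals and floors (3 counts) cover counting error only. Library depth is given with the results.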

Additional observations from a re-analysis of the deposited data

Results flagged for a closer look

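In 6 of 45 groups of 4 or 5 libraries, 1 library lay far from the others by Dixon's criterion. Chance meets it in about 1 in 20 independent groups of normally distributed values, while these groups share cells and some hold few counts. Krt6b in all keratinocytes was 7.95 CPM in control day 4, with the other controls at 0 to 0.493 CPM, and all 44 UMIs behind that value lay in 1 cell. Krt17 in expanded day 4 was 4596.1 CPM in the Krt15 cluster, against 2169.5 to 2554.1 CPM in the other expanded libraries. In bulge or outer root sheath-like cells, which are part of that cluster, it was 4032.2 CPM against 1451.0 to 1699.7 CPM. Krt6b in expanded day 1 round 2 was 0.704 CPM in the Krt15 cluster, 0.904 CPM in bulge-like cells and 0.481 CPM in the Cxcl10 cluster, with the other expanded libraries at 0. Those Krt6b values rest on 6, 6 and 1 UMIs, and where all other libraries are at 0 any count meets the criterion.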

How the results depend on the processing

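Of 1682 values recomputed under alternatives for 130 results, 1353 kept their direction and side of the threshold, or stayed within 1.5 times for a count, and 56 reversed sign, 0 of them for a result past the threshold. At true log2 changes of 1 and 2, simulated counts gave recovery of 77.8% and 88.7% for all keratinocytes (12175 genes), 68% and 95.9% for the Krt15 cluster (9908), 73.2% and 95.8% for the Ly6d cluster (9953) and 44.4% and 95.7% for the Cst6 cluster (4134). Control day 2 round 1 had 60 keratinocytes, and day 4 has 1 library per arm. Mouse-level fits could not be made for the Krt15 cluster, bulge-like cells and the Cxcl10 cluster, nor the fit with doublets kept for the Cxcl10 cluster, nor the planned comparison of basal with spinous cells, which had too few cells. The cause of each change below was not tested unless the setting itself removes cells or genes.

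Genes called numbered 972 in all keratinocytes, 113 in the Krt15 cluster, 1656 in the Ly6d cluster, 157 in bulge-like cells and 50 in the Cxcl10 cluster. DESeq2 called 1510 in all keratinocytes and 200 in the Krt15 cluster. Thinned cells gave 243, 36, 291, 32 and 13 in that order. At most 5% mitochondrial UMIs gave 64 in the Krt15 cluster, 93 in bulge-like cells and 30 in the Cxcl10 cluster. With no filter on low counts there were 1972, 783, 650 and 258 in all keratinocytes, the Krt15 cluster, bulge-like cells and the Cxcl10 cluster. The mouse as the unit gave 1956 in all keratinocytes, members allowed in clustering 196 in the Krt15 cluster, and a limit of 10 cells 100 in the Cxcl10 cluster. Without the Cstdc5 cluster 482 were called. Leaving out a library gave 270 (without expanded day 1 round 2) to 1590 (without control day 2 round 2) in all keratinocytes, 17 to 129 in the Krt15 cluster, 928 to 1798 in the Ly6d cluster, 26 to 127 in bulge-like cells and 1 to 98 in the Cxcl10 cluster. Without control day 1 round 1 the counts were lowest in the Krt15 cluster, bulge-like cells and the Cxcl10 cluster, and without control day 4 in the Ly6d cluster.

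In the Krt15 cluster, bulge-like cells and the Cxcl10 cluster the fits with the replicate block also leave out libraries without a partner, so 2 choices change at once. With it the counts were 265, 245 and 227 in the Krt15 cluster, bulge-like cells and the Cxcl10 cluster. Leaving out expanded day 2 round 1 without the block gave 129 and 127 in the Krt15 cluster and bulge-like cells. The log2 fold changes that crossed the threshold with the block were 1.46 for Krt6a in all keratinocytes, 2.33 for Krt6a and 9.09 for Krt6b on day 2, 2.18 for Krt6b on day 4, and -5.10 for Krt6b on day 4 minus day 1. In the Krt15 cluster these fits have 1 residual degree of freedom. There the values were -2.61 for Krt16 on day 1 and 3.65 for Krt16 on day 2 minus day 1. For day 4 minus day 1 they were 1.33, 1.78 and 1.54 for Krt6a, Krt16 and Krt17. Days 2 and 4 have 1 pair each in the Krt15 cluster, so the fit holds no spread of the effect on those days. Uncalled values that reversed with the block were -0.11 for Krt16 on day 1 and -0.03 for Krt17 in the Ly6d cluster.

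With no filter on low counts many member tests passed that the filtered fit did not call, at similar fold changes and far smaller p-values, and those passes are not used. In all keratinocytes Krt6a was at 1.38, and at 0.74, 1.93 and 1.55 on days 1, 2 and 4 and 1.20 for day 2 minus day 1. Krt6b was at 10.16 and 2.21 on days 2 and 4, 4.64 for control day 4 minus day 1 and -5.10 for the difference of those effects. Krt16 was at -1.04 on day 4 and 0.91 for control day 4 minus day 1. In the Krt15 cluster Krt16 was at -1.15, -2.61 on day 1, 2.06 on day 2, 4.66 and 1.83 for days 2 and 4 minus day 1, and -3.18 for control day 2 minus day 1. Krt17 there was at -0.52, -0.96 for control day 2 minus day 1, and 1.06 and 1.54 for days 2 and 4 minus day 1, and Krt6a at 1.28 for day 4 minus day 1. In the Ly6d cluster Krt6a was at 0.97 and Krt16 at 0.61, and the Ly6d minus Krt15 difference was 1.51 for Krt16, 0.43 for Krt17 and 8.41 for Krt6b. Krt16 was at -0.60 in bulge-like cells and -1.39 in the Cxcl10 cluster, Krt17 at -0.67 there, and Krt6b at 2.83 in the Cst6 cluster. The Cst6 minus Cxcl10 difference was 1.12, 4.1 and 1.06 for Krt6a, Krt16 and Krt17.

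Other settings that moved a call gave 5.22 for Krt6b in the Cst6 cluster and -0.74 for Krt17 in the Cxcl10 cluster with DESeq2. Members allowed in clustering gave 1.35 for Krt6a in all keratinocytes and 1.28 and 1.47 for Krt6a and Krt16 in the Ly6d cluster. The mouse as the unit gave 1.63 for Krt6a and 0.61 for Krt17, and a reversed 1.01 for Krt16. Further uncalled values reversed to 0.04 for Krt16 in cluster 13 with DESeq2 and -0.03 for Krt16 on day 1 with RLE size factors. Krt17 in the Ly6d cluster reversed to -0.14, -0.19 and -0.05 with at most 5% mitochondrial UMIs, doublets kept and thinning. Krt6a reversed to -0.10 in bulge-like cells with doublets kept, and with thinning to -0.01 in the Krt15 cluster and -0.54 in the Cxcl10 cluster, and Krt17 to -0.10 in all keratinocytes. Without the matrix-like cluster Krt16 was at 0.19 and Krt17 at -0.03. Without thinning the differences in shares of cells were 0.826 percentage points for Krt17, 23.8 for Krt6a and 2.77 for Krt6b.

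Leaving out 1 library at a time gave these lowest and highest log2 values. In all keratinocytes they were 1.04 to 1.59 for Krt6a, 4.02 to 7.48 for Krt6b, -0.44 to 0.16 for Krt16 and -0.03 to 0.24 for Krt17. On day 1 Krt16 ran from -1.04 to 0.66, and on day 2 Krt16 from -0.38 to 1.5, Krt6a from 1.22 to 4.08 and Krt6b from 8.64 to 10.99. Krt16 for day 2 minus day 1 ran from -0.38 to 1.5. Among controls, day 2 minus day 1 ran from -2.51 to 0.35 for Krt6a and -0.87 to 1.01 for Krt16, and day 4 minus day 1 from -0.23 to 0.21 for Krt6a and -0.08 to 0.03 for Krt17. In the Krt15 cluster they were -0.02 to 0.44 for Krt6a, -1.38 to -1.13 for Krt17 on day 1, -0.23 to 0.04 for Krt17 on day 2 and -0.35 to 2.05 for Krt16 in control day 4 minus day 1. In the Ly6d cluster they were 0.43 to 0.98 for Krt16 and -0.26 to 0.20 for Krt17, and in the Cxcl10 cluster -2.34 to -0.94 for Krt16. Bulge-like cells gave -1.43 to 0.10 for Krt16 and -0.55 to 0.10 for Krt17. The Cst6 cluster gave 1.12 to 1.34 for Krt6a, 2.04 to 3.14 for Krt16 and 1.90 to 6.1 for Krt6b, and its difference from the Cxcl10 cluster 3.11 to 5.09 for Krt16. Cluster 3 gave -0.48 to 0.03 for Krt17, cluster 4 gave -0.41 to 0.07 for Krt6a and -0.98 to 0.66 for Krt16, and cluster 13 gave -1.12 to 2.64 for Krt16.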

Other observations

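Krt17 in the cluster led by Aspn and Tgfb2, where Krt6a and Krt16 were low, was lower in expanded skin. With at least 10 cells per library it was 14009.6, 15001.3, 12334.3 and 11655.3 CPM in control libraries and 9156.1, 7822.3 and 11414.1 CPM in expanded libraries. The expanded library was higher in 0 of 3 comparisons within a day and round, with no test because an arm had fewer than 4 libraries. In the cluster led by Gja1 and Pthlh, Krt17 was nearly level, at 13510.8 CPM in control and 14141.1 CPM in expanded libraries on average.

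Of all keratin UMIs in keratinocytes, Krt17 took 11.9% to 18.3% in control and 7.55% to 17.3% in expanded libraries. In the broad Ly6d cluster, 4 of 9 tested alarm and antimicrobial genes rose and 0 fell, with a median log2 fold change of 1.16, beside 745 of all 10244 genes called higher. The transcription factors listed upstream of wound keratins had 0 of 14 higher and 4 lower there, with a median of -0.41, beside 911 of all genes called lower.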
